A study of Mus musculus with 42 samples.

Results

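The muscleblind genes Mbnl1, Mbnl2 and Mbnl3 were followed through an RNA immunoprecipitation sequencing study of mouse embryonic stem cells. Members were the rows whose gene symbol was Mbnl1, Mbnl2 or Mbnl3, which gave 3 genes of 20071 in the 2 count tables. All 3 were present in both tables and all 3 passed the filter on low counts. The cells were 129S6/SvEvTac embryonic stem cells kept in serum and LIF on gelatin. Every group, controls included, carried the GFP reporter called yGlob [GFP_5xT71BS] and a stable FLAG-Cas9::T2A::Blasticidin transgene.

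Untagged control cells had no further label. Tagged cells carried HA-AVI-Tnrc6a, and the cells labelled Trim71KO and Ago2KO carried HA-AVI-Tnrc6a together with Trim71-/- or Ago2-/-. RNA bound to anti-HA beads (IP) and RNA of the lysate (input) were sequenced. Experiment 1 held 6 groups of 3 libraries, which were input and IP of untagged, tagged and Trim71KO cells. Experiment 2 held 8 groups of 3 libraries and added input and IP of Ago2KO cells. Cells were grown in triplicate dishes of each genotype, and whether a genotype is 1 clone or several is not given in the sources used here. The p-values therefore measure the spread between dishes.

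Muscleblind proteins bind RNA through CCCH zinc fingers, direct tissue-specific alternative splicing and polyadenylation, and also act on the localisation and stability of mRNAs. MBNL1 and MBNL2 are best known from myotonic dystrophy, in which expanded repeat RNA sequesters them. MBNL1 and MBNL2 repress splicing patterns typical of embryonic stem cells, and MBNL3 is the member linked to proliferating and undifferentiated cells. Tnrc6a is a GW182 protein that Argonaute proteins bring to microRNA targets and that recruits deadenylases. TRIM71 is a stem cell RNA-binding protein that represses mRNAs, and Mbnl1 mRNA is a reported TRIM71 target. The libraries thus ask how much of each muscleblind mRNA was bound with tagged Tnrc6a, and whether this depended on Trim71 or on Ago2.

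Mbnl1 (ENSMUSG00000027763) lies on chromosome 3, from 60472559 to 60629750 on the plus strand of GRCm38.p6 as annotated by RefSeq. Mbnl2 (ENSMUSG00000022139) lies on chromosome 14, from 120275652 to 120431698 on the plus strand. Mbnl3 (ENSMUSG00000036109) lies on chromosome X, from 51113494 to 51205990 on the minus strand. The values are sums over each whole gene and do not separate exons, UTRs or isoforms. RefSeq places 3 lncRNA genes (Gm26679, Gm52122 and LOC115486414) over Mbnl2 and none over Mbnl1 or Mbnl3. Whether the counting kept such overlaps apart is not given in the sources used here, so Mbnl2 values are less certain in this respect.

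Libraries held 12587257 to 23657840 counts in experiment 1 and 16296447 to 21026552 in experiment 2. Mbnl1 had 164 to 358 counts in an input library, Mbnl2 314 to 828 and Mbnl3 28 to 60, so Mbnl3 was measured with the least precision. All 8 embryonic stem cell markers were present in input, with a summed level of 5580 to 7344 CPM. The muscle markers summed to 13.5 to 41.2 CPM, and Myod1 and Myog had no row under these symbols in either count table. Ckm had a row in experiment 2 alone, at 0.640 CPM at most, so the muscle sums were nearly all Des. Ago2 input RNA fell from 353 ± 34.9 CPM in tagged to 162 ± 4.76 CPM in Ago2KO cells. The input level of Trim71 RNA was above that of tagged cells where the label was Trim71KO, at 281.8 ± 3.18 against 240.6 ± 21.2 CPM in experiment 1 and 377 ± 9.61 against 282 ± 23.5 CPM in experiment 2. That label is therefore not checked by RNA, and every direction given for Trim71KO refers to the libraries so labelled. Replicate libraries 1 and 3 of Trim71KO IP and libraries 1 and 2 of tagged input stood farthest from the rest of their groups in experiment 1 (r of log2 CPM with the other libraries of the group 0.982, 0.986, 0.988 and 0.986).

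In lysates, Mbnl2 was the most abundant muscleblind mRNA per length and Mbnl3 the least. The gene lengths used, deposited with the counts, were 18717 bases for Mbnl1, 11993 for Mbnl2 and 8743 for Mbnl3. They are shorter than the genomic spans above, and levels and shares per length depend on them. Per kilobase of gene length, untagged input held 2.27 ± 0.247 CPM of Mbnl2, 0.431 ± 0.0152 of Mbnl1 and 0.234 ± 0.0566 of Mbnl3 in experiment 1 (mean ± SD, n = 3). The corresponding levels in experiment 2 were 3.25 ± 0.289, 0.562 ± 0.028 and 0.266 ± 0.0507 CPM per kilobase. Mbnl2 therefore made up 77.2 ± 3.02% and 79.6 ± 1.87% of muscleblind RNA per length in untagged input, and Mbnl1 14.7 ± 0.819% and 13.8 ± 0.494%. The order Mbnl2, Mbnl1, Mbnl3 held in all 21 input libraries. The authors' RPKM values gave the same order of the 3 genes in 42 of 42 libraries. They rest on the same libraries and counts, so this is no independent check of the order.

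With the tag this order changed in the bead-bound RNA. Mbnl1 passed Mbnl2 in all 6 tagged IP libraries and reached 72.9 ± 1.02% of muscleblind RNA per length in experiment 1 and 61.4 ± 4.45% in experiment 2. On beads from untagged cells its share was 12.4 ± 2.18% and 11.8 ± 0.888%. In Trim71KO IP the Mbnl1 share was 44.8 ± 0.611% and 36.6 ± 1.49%, and Mbnl2 was again the most abundant per length in all 6 libraries. Ago2KO IP lay between tagged and Trim71KO IP, at 51.2 ± 5.50%, with Mbnl1 ahead of Mbnl2 per length in 2 of 3 libraries. In the knockout IP groups this order depended on the lengths used. Without division by length, Trim71KO IP of experiment 1 held a mean of 82.6 CPM of Mbnl1 and 57.1 of Mbnl2. The means were 56.7 and 56.4 CPM in Trim71KO IP of experiment 2, and 75.8 and 40.3 CPM in Ago2KO IP.

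**Figure D1:**
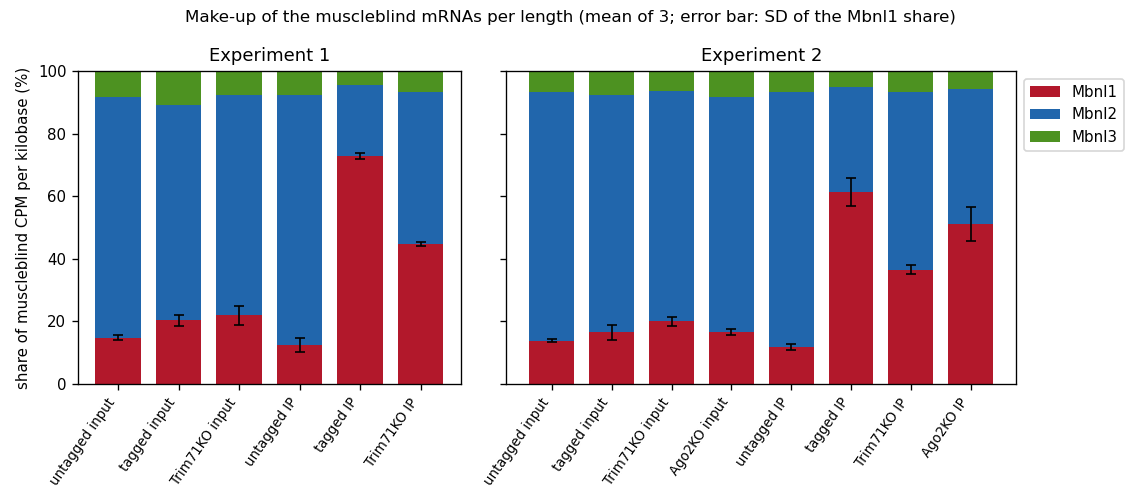
Stacked bars give the share of each gene in the muscleblind CPM per kilobase (%, mean of 3 libraries) for each group, with the SD of the Mbnl1 share as error bar. Mbnl1 takes 72.9% and 61.4% of tagged IP and between 13.8% and 21.9% of the input groups.

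Mbnl1 was among the RNAs most dependent on the tag. On beads from untagged cells of experiment 1, Mbnl1 stood at 8.65, 6.06 and 8.72 CPM, and the 3 tagged IP libraries held 284.7, 285.9 and 330.4 CPM. In experiment 2 the untagged IP libraries held 7.40, 8.30 and 7.04 CPM and the tagged ones 173.7, 139.8 and 107.5 CPM. The groups were far apart in both experiments, and tagged library 1 was the highest of its group in experiment 2. CPM here are counts scaled to a common library size, with TMM scaling within each experiment.

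With IP and input libraries matched by replicate number, Mbnl1 was recovered over input 23.9-, 30.0- and 37.5-fold in the 3 tagged dishes of experiment 1 and 13.5-, 13.7- and 10.6-fold in those of experiment 2. This match, used for all recoveries of single dishes, rests on the numbers in the labels. In no genotype did same-numbered IP and input libraries deviate together with every correlation above 0.1. Without the tag the fitted recovery was 0.968-fold and 0.721-fold. The tag-specific enrichment, which is the log2 IP to input ratio in tagged minus that in untagged cells, was 4.95 (SE 0.21, edgeR adjusted p 1.94e-15) in experiment 1 and 4.14 (SE 0.24, edgeR adjusted p 2.81e-13) in experiment 2. A gene is called where the adjusted p is under 0.05, and this comparison had 28.1% of genes called higher and 28.8% lower in experiment 1, and 18.9% higher and 8.77% lower in experiment 2. Mbnl1 ranked 89 from the top of 18772 genes in experiment 1 and 43 from the top of 19778 in experiment 2.

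Mbnl2 and Mbnl3 were also recovered with the tag, at a much lower ratio. Mbnl2 stood at 31.36, 32.90 and 32.73 CPM on untagged beads of experiment 1 and at 55.21, 60.72 and 65.03 CPM on tagged beads. In experiment 2 these libraries held 36.14, 34.45 and 30.79 CPM without and 49.40, 48.57 and 46.30 CPM with the tag. The groups did not overlap. The tag-specific enrichment of Mbnl2 was 1.19 (SE 0.21, edgeR adjusted p 3.72e-05) and 0.77 (SE 0.12, edgeR adjusted p 7.56e-06).

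Mbnl3, the scarcest of the family, rose on the beads from 2.66, 1.90 and 2.01 CPM without the tag to 6.85, 8.15 and 9.91 CPM with it in experiment 1. The same libraries of experiment 2 held 2.16, 1.83 and 1.87 against 5.71, 6.19 and 3.90 CPM. These groups did not overlap either. Its tag-specific enrichment was 1.59 (SE 0.38, edgeR adjusted p 0.000851) and 1.38 (SE 0.28, edgeR adjusted p 0.000379), with 27 to 128 counts behind an IP value. In lysates, none of the 3 genes was called between tagged and untagged cells in either experiment. The changes of tagged against untagged input were 0.32 (SE 0.15) and 0.07 (SE 0.17) for Mbnl1, -0.29 (SE 0.15) and -0.26 (SE 0.08) for Mbnl2, and 0.33 (SE 0.27) and 0.04 (SE 0.20) for Mbnl3, where 10.6% and 1.39% of genes were called. Leaving out tagged input library 1 made the Mbnl2 change in experiment 1 a call, at -0.49 (edgeR adjusted p 0.0249).

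**Figure D2:**
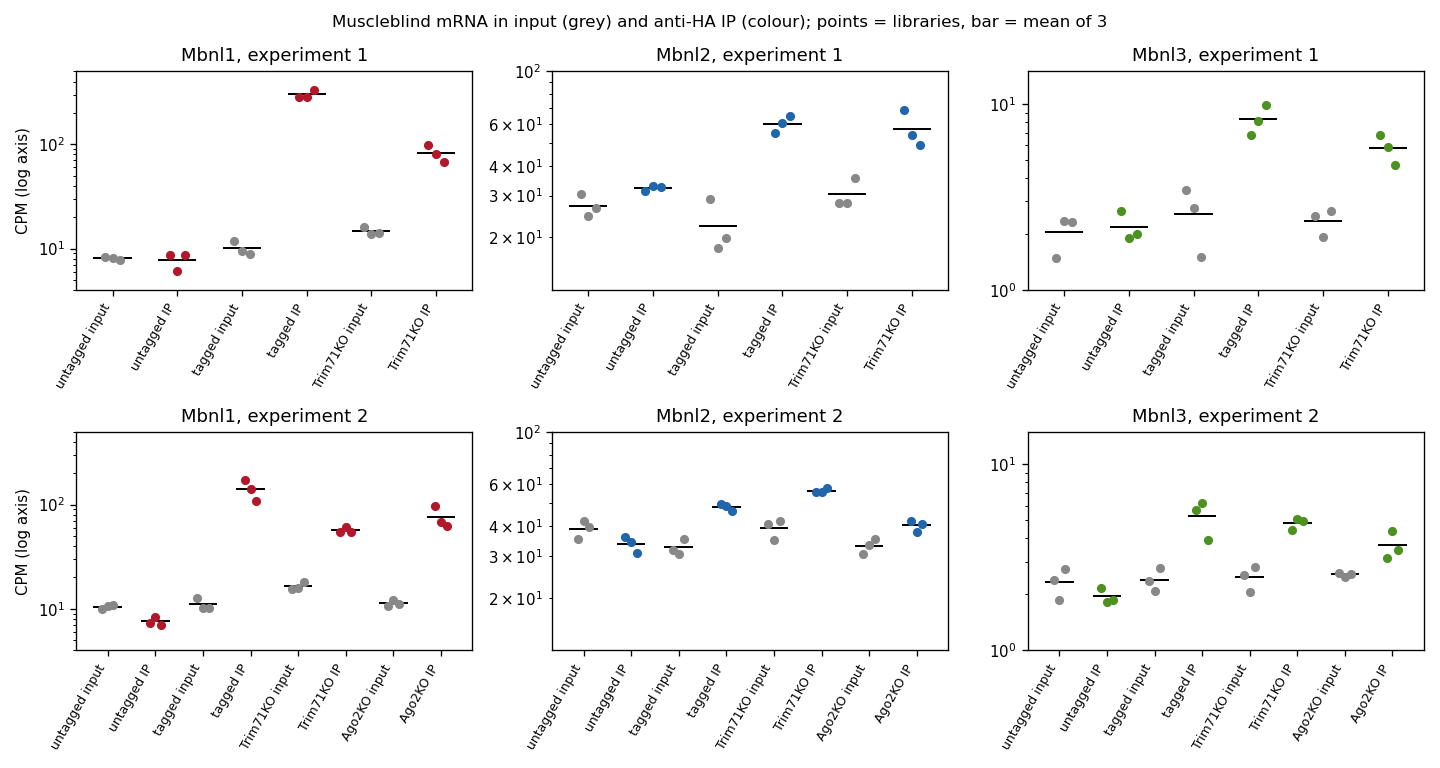
Each point is 1 library, with its CPM on a log axis, and bars are means of 3; input libraries are grey and IP libraries coloured, with experiment 1 above and experiment 2 below. Mbnl1 in tagged IP reaches 284.7 to 330.4 CPM in experiment 1 and is the highest group for Mbnl1 in both experiments.

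In cells labelled Trim71KO, Mbnl1 lost most of its recovery with Tnrc6a. Trim71KO IP held 99.5, 80.2 and 68.0 CPM of Mbnl1 in experiment 1 against 284.7, 285.9 and 330.4 CPM in tagged IP. In experiment 2 it held 54.5, 60.6 and 55.1 CPM, against 173.7, 139.8 and 107.5 CPM. All 6 Trim71KO libraries were below all tagged libraries of their experiment. Recovery over input was 6.23-, 5.84- and 4.83-fold in experiment 1 and 3.48-, 3.79- and 3.03-fold in experiment 2.

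The Trim71-dependent enrichment, the log2 IP to input ratio in Trim71KO minus that in tagged cells, was -2.40 for Mbnl1 in experiment 1 (SE 0.19, edgeR adjusted p 1.50e-08), a 5.27-fold lower ratio. In experiment 2 it was -1.89 (SE 0.21, edgeR adjusted p 9.49e-06). Genes called lower here were 3.47% of those tested in experiment 1 and 0.738% in experiment 2, and those called higher 0.272% and 0.753%. Mbnl1 ranked 44 and 52 from the lowest, and 6 of 18553 genes tested in both experiments lay below it in both. Of these 6, chosen after their values were seen, Pank3 and Gm32031 were called in both experiments. ENSMUSG00000076281 was called in experiment 1 alone (edgeR adjusted p 0.0177), and Nr2f2, Egr3 and ENSMUSG00000097974 were called in neither.

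Mbnl2 and Mbnl3 showed no such call. The Trim71-dependent enrichment of Mbnl2 was -0.54 (SE 0.21, edgeR adjusted p 0.195) in experiment 1 and -0.04 (SE 0.12, edgeR adjusted p 0.924) in experiment 2, with 95% intervals of -0.94 to -0.13 and -0.27 to 0.19. For Mbnl3 it was -0.41 (SE 0.35, edgeR adjusted p 0.657) and -0.15 (SE 0.26, edgeR adjusted p 0.851), with intervals of -1.10 to 0.28 and -0.67 to 0.36. The recoveries over input of tagged and Trim71KO dishes overlapped for both genes in both experiments. In experiment 1 Mbnl2 became a call without tagged input library 1 (-0.68, edgeR adjusted p 0.0408) and without Trim71KO IP library 1 (-0.63, edgeR adjusted p 0.0422).

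The difference between members was tested within libraries, where scaling cancels. The log2 ratio of Mbnl1 to Mbnl2 in IP minus that in input ran from 3.15 to 3.65 in tagged and from 1.35 to 1.81 in Trim71KO cells of experiment 1. Its range in experiment 2 was from 3.02 to 3.12 in tagged and from 1.13 to 1.35 in Trim71KO cells. No value of one genotype reached the range of the other. The mean difference over both experiments was -1.84 (two-sided exact permutation test, p 0.005, adjusted p 0.015 over 6 tests), and 0.005 is the smallest p that the 400 arrangements allow. Within each experiment, genotype labels were permuted freely among dishes. No paired form was run, although same-numbered tagged and Trim71KO libraries of experiment 2 deviated together.

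Mbnl1 against Mbnl3 gave a like difference, -1.85 (two-sided exact permutation test, p 0.005, adjusted p 0.015), made of -1.95 in experiment 1 and -1.74 in experiment 2. Mbnl2 against Mbnl3 gave a mean difference of -0.003 (exact permutation p 0.97), with -0.10 in experiment 1 and 0.10 in experiment 2. The drop of the IP to input ratio in Trim71KO cells was thus larger for Mbnl1 than for either of the other members. The ratio between members on the beads alone was not tested.

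**Figure D3:**
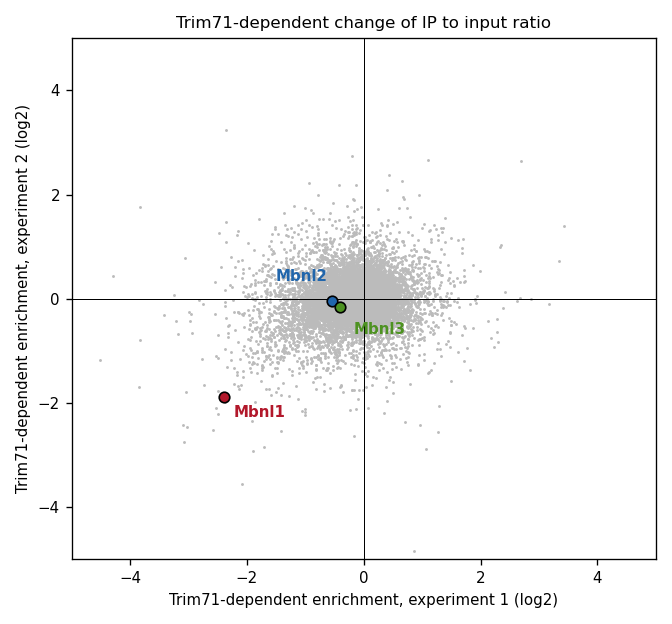
Grey points are the 18553 genes tested in both experiments, placed by their Trim71-dependent change of the log2 IP to input ratio in experiment 1 (x) and experiment 2 (y); 2 genes beyond 5 on the log2 scale are not drawn. Mbnl1 sits at -2.40 and -1.89, away from the dense centre, while Mbnl2 and Mbnl3 sit near it.

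The lysate level of Mbnl1 moved the other way in Trim71KO cells. Input held 11.94, 9.52 and 8.81 CPM in tagged and 15.96, 13.74 and 14.08 CPM in Trim71KO cells of experiment 1. In experiment 2 the libraries held 12.83, 10.19 and 10.11 CPM and 15.63, 15.98 and 18.19 CPM. The groups did not overlap in either experiment. Mbnl1 rose by 0.53 on the log2 scale (SE 0.15, edgeR adjusted p 0.00704), a factor of 1.45, and by 0.59 (SE 0.16, edgeR adjusted p 0.00836), a factor of 1.50. In this comparison 16.5% and 13.5% of genes were called higher and 17.4% and 13.7% lower. Without tagged input library 3 the experiment 1 call did not hold (0.43, edgeR adjusted p 0.0611).

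Mbnl2 input was 29.05, 18.01 and 19.81 CPM in tagged and 27.97, 27.88 and 35.55 CPM in Trim71KO cells of experiment 1, and 31.87, 30.42 and 35.42 against 40.70, 35.08 and 41.93 CPM in experiment 2. The libraries of both genotypes overlapped in both experiments. The changes were 0.46 (SE 0.15, edgeR adjusted p 0.0213) and 0.27 (SE 0.08, edgeR adjusted p 0.0160). In experiment 1 it was no call without tagged input library 2, tagged input library 3 or Trim71KO input library 3 (0.33, 0.37 and 0.32). In experiment 2 it was no call with scaling by library size alone (0.20) and without tagged input library 1 or 2 or Trim71KO input library 1 or 3 (0.25, 0.22, 0.25 and 0.22). This rise was measured against the tagged line. Mean Mbnl2 in experiments 1 and 2 was 27.2 and 39.0 CPM in untagged input, and 30.5 and 39.2 CPM in Trim71KO input. The libraries of these groups overlapped, and Trim71KO input was not tested against untagged input.

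Mbnl3 input stood at 3.45, 2.75 and 1.50 CPM in tagged and 2.50, 1.94 and 2.66 CPM in Trim71KO dishes of experiment 1. In experiment 2 it stood at 2.37, 2.08 and 2.76 and at 2.56, 2.06 and 2.80 CPM, with changes of -0.11 (SE 0.27) and 0.04 (SE 0.20) and no call. Within input libraries the ratio of Mbnl1 to Mbnl3 was higher in Trim71KO cells by 0.57 on the log2 scale (exact permutation p 0.01, adjusted p 0.02), with 0.59 and 0.56 in the 2 experiments. The ratio of Mbnl1 to Mbnl2 differed by 0.20 (exact permutation p 0.14, adjusted p 0.168), and that of Mbnl2 to Mbnl3 by 0.38 (exact permutation p 0.035, adjusted p 0.0525).

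Markers of other cell types moved with both knockout labels. The 5 primitive endoderm markers summed to 45.2 to 57.5 CPM in tagged and 8.63 to 9.16 CPM in Trim71KO input of experiment 1, and 4 of them to 15.3 to 17.2 and 4.87 to 6.35 CPM in experiment 2. Of 5 fibroblast markers, the 2 with a row in the count tables were Col1a1 and Thy1. They summed to 22.6 to 24.5 CPM in tagged and 58.0 to 61.8 CPM in Trim71KO input of experiment 1, and to 34.2 to 35.8 and 49.5 to 51.9 CPM in experiment 2. Col1a1 reached at most 4.58 and 5.34 CPM in input of the 2 experiments, so these sums were mostly Thy1. The muscle markers summed to 27.3 to 40.7 CPM in tagged and 20.4 to 26.0 CPM in Trim71KO input of experiment 1, and to 25.8 to 28.4 and 15.3 to 18.7 CPM in experiment 2. The muscle sums held Des alone in experiment 1 and Des with scarce Ckm in experiment 2. The 8 embryonic stem cell markers summed to 5867 to 6576 CPM in tagged and 6580 to 6719 CPM in Trim71KO input of experiment 1, and to 6153 to 6395 and 6948 to 7344 CPM in experiment 2. The sums of the 3 neural markers of 4 with a row in the count tables overlapped between these groups in both experiments. In Ago2KO input the sums were 6.38 to 8.47 CPM for primitive endoderm, 29.9 to 35.1 for fibroblast, 13.5 to 17.7 for muscle, 90.8 to 100.3 for neural and 7037 to 7094 CPM for embryonic stem cell markers, against 74.1 to 81.2 CPM for neural markers in tagged input of experiment 2. All of these but the fibroblast sum stood outside the tagged range. The part of these markers in the muscleblind results of either knockout was not tested, and in bulk RNA fewer cells of a type cannot be told apart from less RNA per cell.

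The lower Mbnl1 ratio in Trim71KO cells was made up of both terms. On the beads alone the Mbnl1 level fell by 1.86 on the log2 scale in experiment 1 (SE 0.13, edgeR adjusted p 1.63e-10) and by 1.31 in experiment 2 (SE 0.14, edgeR adjusted p 3.81e-08), where 21.1% and 16.2% of genes were called lower and 14.3% and 17.1% higher. Bead-bound Mbnl2 gave -0.08 (SE 0.14, edgeR adjusted p 0.700) and 0.23 (SE 0.08, edgeR adjusted p 0.0301); the latter was a call. It was lost without a low-count filter (0.21, edgeR adjusted p 0.0516). With 1 library left out it was lost 5 times of 6 (0.18 to 0.24) and held without tagged IP library 1 (0.25). Mbnl3 gave -0.52 (SE 0.23, edgeR adjusted p 0.0842) and -0.12 (SE 0.17, edgeR adjusted p 0.650).

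Part of the tag-dependent recovery remained in Trim71KO cells for all 3 genes. Against untagged cells, the log2 IP to input ratio in Trim71KO cells was higher by 2.55 (SE 0.21, edgeR adjusted p 2.98e-10) and 2.24 (SE 0.24, edgeR adjusted p 1.26e-08) for Mbnl1. For Mbnl2 it was higher by 0.65 (SE 0.21, edgeR adjusted p 0.00990) and 0.73 (SE 0.12, edgeR adjusted p 1.09e-05). For Mbnl3 it was higher by 1.19 (SE 0.38, edgeR adjusted p 0.0103) and 1.23 (SE 0.28, edgeR adjusted p 0.000939), and its recoveries in the single dishes overlapped in experiment 1. In this comparison 25.6% of genes in experiment 1 and 23.0% in experiment 2 were called higher.

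In Ago2KO cells, measured in experiment 2 alone, the recovery of Mbnl1 was also lower than in tagged cells. Ago2KO IP held 97.1, 68.3 and 61.9 CPM of Mbnl1, and recovery over input was 9.03-, 5.63- and 5.55-fold. Each of these values was below those of the 3 tagged dishes. The Ago2-dependent enrichment was -0.93 (SE 0.22, edgeR adjusted p 0.00947), with 3.77% of genes called lower and 0.384% higher, and Mbnl1 ranked 486 from the lowest. Fitting tagged and Ago2KO libraries alone gave -0.95 with edgeR adjusted p 0.0874, which was no call.

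The Trim71KO and Ago2KO comparisons share the tagged libraries and are therefore not independent. Set directly against each other, Mbnl1 recovery was lower in Trim71KO than in Ago2KO cells by 0.97 on the log2 scale (-0.97, SE 0.21, edgeR adjusted p 0.00259), and 2.86% of genes were called lower. Its 3 Trim71KO recoveries, 3.03- to 3.79-fold, lay below the 3 Ago2KO ones. Mbnl2 and Mbnl3 gave 0.23 (SE 0.12, edgeR adjusted p 0.219) and 0.45 (SE 0.27, edgeR adjusted p 0.321).

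The lysate level of Mbnl1 in Ago2KO cells was 10.75, 12.13 and 11.15 CPM, within the tagged range of 10.11 to 12.83 CPM. Its change was 0.04 (SE 0.17, edgeR adjusted p 0.939), with a 95% interval of -0.29 to 0.37, where 4.38% of genes were called higher and 2.57% lower. Mbnl2 changed by 0.02 (SE 0.08, edgeR adjusted p 0.945) and Mbnl3 by 0.09 (SE 0.20, edgeR adjusted p 0.867). Between the knockout labels, Mbnl1 input was higher in Trim71KO than in Ago2KO cells by 0.55 (SE 0.16, edgeR adjusted p 0.0125), without overlap, where 13.2% of genes were called higher. That call was lost without Trim71KO input library 3 (0.48, edgeR adjusted p 0.0594). Mbnl2 input was higher by 0.25 (SE 0.08, edgeR adjusted p 0.0230) with overlapping libraries, and this call was lost with library size alone (0.22) and without Trim71KO input library 1 or 3 or Ago2KO input library 1 (0.24, 0.20 and 0.21). Mbnl3 differed by -0.05 (SE 0.20, edgeR adjusted p 0.884).

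Bead-bound Mbnl1 fell by 0.89 on the log2 scale in Ago2KO cells (SE 0.13, edgeR adjusted p 2.60e-05), where 9.32% of genes were called lower. Mbnl2 IP held 42.14, 37.89 and 40.83 CPM, each below the tagged libraries, a change of -0.25 (SE 0.08, edgeR adjusted p 0.0321). Mbnl3 IP held 3.13, 4.40 and 3.48 CPM, which overlapped the tagged libraries, a change of -0.52 (SE 0.18, edgeR adjusted p 0.0458). Both calls were lost with library size alone (-0.18 and -0.44) and with tagged and Ago2KO libraries fitted alone (-0.24 and -0.51). The Mbnl2 call was also lost without tagged IP library 1 or 2 or Ago2KO IP library 2 (-0.26, -0.25 and -0.21). The Mbnl3 call was also lost without tagged IP library 1 or 2 or Ago2KO IP library 1 or 3 (-0.48, -0.38, -0.41 and -0.51).

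As IP to input ratios, the Ago2-dependent changes of these genes were -0.27 (SE 0.12, edgeR adjusted p 0.269) for Mbnl2 and -0.61 (SE 0.27, edgeR adjusted p 0.289) for Mbnl3. Against untagged cells, the recovery that remained in Ago2KO cells was higher by 3.21 for Mbnl1 (SE 0.24, edgeR adjusted p 7.81e-11) and by 0.50 for Mbnl2 (SE 0.12, edgeR adjusted p 0.00246), where 15.8% of genes were called higher. Mbnl3 gave 0.78 (SE 0.28, edgeR adjusted p 0.0518), with no overlap between dishes, and became a call without untagged input library 2 (0.91) or Ago2KO IP library 1 (0.88).

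**Figure D4:**
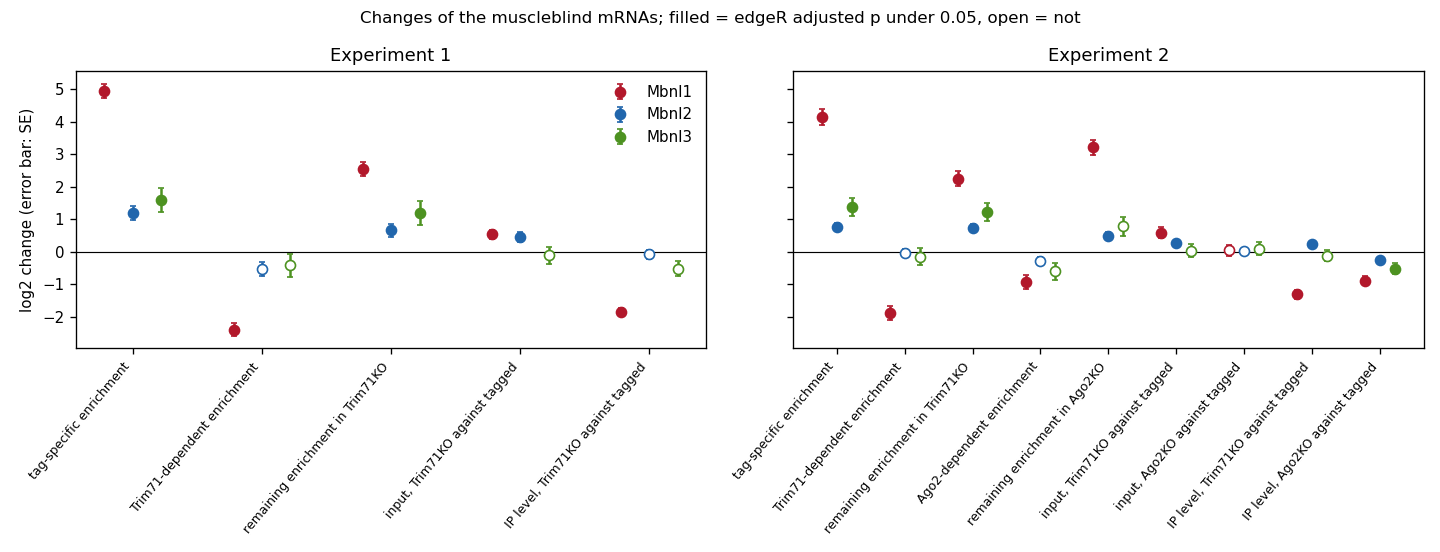
Points give the log2 change of each gene in each comparison, with the SE as error bar, filled where the edgeR adjusted p is under 0.05 and open otherwise. Mbnl1 stands apart from Mbnl2 and Mbnl3 in tag-specific, remaining and Trim71-dependent enrichment, and its input is higher in Trim71KO but not called in Ago2KO cells.

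Tagged IP was the highest group for Mbnl1 in both experiments. In experiment 1 the order of levels ran from tagged IP (300.4 CPM) through Trim71KO IP (82.6), Trim71KO input (14.6) and tagged input (10.1) to untagged input (8.06) and untagged IP (7.81), and only the last pair of neighbours overlapped. In experiment 2 it ran from tagged IP (140.3 CPM) through Ago2KO IP (75.8), Trim71KO IP (56.7) and Trim71KO input (16.6) to Ago2KO, tagged and untagged input (11.3, 11.0 and 10.5), with untagged IP lowest (7.58). The input levels of Ago2KO, tagged and untagged cells overlapped in that order. Mbnl2 spanned a narrower range of group means, 22.3 to 60.3 CPM in experiment 1 and 32.6 to 56.4 CPM in experiment 2. Its highest group was tagged IP (60.3 CPM), overlapping Trim71KO IP (57.1), in experiment 1, and Trim71KO IP (56.4 CPM) in experiment 2. Mbnl3 was highest in tagged IP in both experiments (8.30 and 5.27 CPM), and its input groups, all between 2.05 and 2.57 CPM, lay below its tagged and knockout IP groups without overlap and overlapped each other.

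The genes whose levels were most like those of Mbnl1 were Nfib, Erbin and Zfp148. Over the 42 libraries, after centring log2 CPM within each experiment, the highest Pearson correlations with Mbnl1 among 12721 genes were 0.994 for Nfib, a nuclear factor I transcription factor, 0.992 for Erbin, a scaffold protein that binds the ERBB2 receptor, and 0.992 for the zinc finger gene Zfp148. These correlations describe libraries that share the tag, scaling and IP step. They include the tagged and Trim71KO libraries, so a gene that follows Mbnl1 over them also follows it in that contrast, and the values here are a description only. Trim71-dependent enrichment was -2.11 and -1.66 for Nfib, -1.73 and -1.31 for Erbin and -1.71 and -1.19 for Zfp148 in experiments 1 and 2.

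By the same choice over all libraries, the most similar genes for Mbnl2 were Ncoa3 (0.955), a nuclear receptor coactivator, Msi2 (0.954), a musashi RNA-binding protein, and Trerf1 (0.949). Their Trim71-dependent enrichments, -0.13 and 0.30 for Ncoa3, -0.25 and -0.02 for Msi2 and -0.14 and 0.17 for Trerf1, were not called. For Mbnl3 they were Klhl28 (0.952), Mier3 (0.949) and the tyrosine phosphatase gene Ptpn4 (0.943). Mier3 and Ptpn4 were called in experiment 1 alone (-0.70 and -0.92), with -0.14 and -0.24 in experiment 2. Among the members, r was 0.819 for Mbnl1 with Mbnl2, 0.923 for Mbnl1 with Mbnl3 and 0.841 for Mbnl2 with Mbnl3.

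Some other tissue-specific splicing regulators were recovered with the tag. Of 25 listed genes of the CELF, RBFOX, PTB, STAR, Nova, Elav and Esrp families and Srrm4, 22 were tested. In tag-specific enrichment 10 were called higher and 2 lower in experiment 1, and 9 higher and 0 lower in experiment 2. Over all genes 28.1% were called higher and 28.8% lower in experiment 1, and 18.9% and 8.77% in experiment 2. The list had medians of 0.43 and 0.26 against -0.10 and -0.03 over all genes. Elavl2, a neuronal Elav-family RNA-binding protein, rose by 3.35 (SE 0.16) and 2.56 (SE 0.18). Srrm4, the regulator of neuronal microexons, rose by 2.18 (SE 0.33) and 1.34 (SE 0.43), and its experiment 2 call was lost without untagged input library 3 (0.92), untagged IP library 2 or 3 (1.24 and 1.15) or tagged IP library 1 (1.21). Both changes of Elavl2 and Srrm4 were below those of Mbnl1.

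In Trim71-dependent enrichment 0 of 22 genes were called in either experiment, near the low shares over all genes (3.47% lower and 0.272% higher in experiment 1, 0.738% and 0.753% in experiment 2), with medians of -0.02 and 0.06 against -0.04 and 0.01 over all genes. In Ago2-dependent enrichment 4 were called lower and 0 higher, against 3.77% lower and 0.384% higher over all genes, with a median of -0.13 against 0.003. Celf2, a CELF-family regulator whose effects on splicing often oppose those of muscleblind proteins, changed by -0.90 (SE 0.15, edgeR adjusted p 0.000407), and the neuronal splicing regulator Nova2 by -0.80 (SE 0.14, edgeR adjusted p 0.000749). Trim71KO input had 4 called lower and 4 higher in experiment 1 and 8 lower and 4 higher in experiment 2. Over all genes 17.4% were called lower and 16.5% higher in experiment 1, near the list's share, and 13.7% and 13.5% in experiment 2. Esrp1, an epithelial splicing regulator, rose by 1.19 (SE 0.16) and 1.35 (SE 0.10) in the 2 experiments. Celf5 rose by 0.96 (SE 0.12) in experiment 1 and by 0.21 (SE 0.07) in experiment 2, and Rbfox3 fell by 1.15 (SE 0.26) in experiment 2. Nova2 (0.93 and -0.42) and Elavl3 (0.57 and -0.43) were called higher in experiment 1 and lower in experiment 2. The other list genes called in both experiments kept their direction. In Ago2KO input 4 were called lower and 2 higher, against 2.57% and 4.38% over all genes, among them Elavl3 (-0.67, SE 0.12) and Ptbp2 (0.58, SE 0.08).

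Genes linked to myotonic dystrophy or known as splicing substrates of muscleblind proteins were described in the same way, with 17 of 20 tested. In tag-specific enrichment 3 were called higher and 5 lower in experiment 1, and 2 higher and 3 lower in experiment 2, with medians of -0.28 and -0.19 against -0.10 and -0.03 over all genes. All genes had 28.1% called higher and 28.8% lower in experiment 1, and 18.9% and 8.77% in experiment 2, so these counts are near the background in experiment 1. Nfix, a transcription factor gene whose exon choice muscleblind proteins regulate, rose by 3.27 (SE 0.31) and 1.61 (SE 0.27). Tead1, a partner of YAP on DNA, rose by 1.57 (SE 0.20) and 0.65 (SE 0.11). Nfix was the member of this list called in Trim71-dependent enrichment, at -2.17 (SE 0.29, edgeR adjusted p 2.17e-05) and -1.46 (SE 0.27, edgeR adjusted p 0.00392), and none was called higher, against 3.47% lower and 0.272% higher over all genes in experiment 1 and 0.738% and 0.753% in experiment 2.

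In Trim71KO input 2 of the 17 were called lower and 7 higher in experiment 1, and 3 lower and 2 higher in experiment 2. All genes had 17.4% called lower and 16.5% higher in experiment 1, and 13.7% and 13.5% in experiment 2. The medians of the list were 0.25 and 0.07 against -0.01 and -0.01. Mapt, which encodes the microtubule protein tau, rose by 1.35 (SE 0.10) and 0.98 (SE 0.06), and Nfix by 1.19 (SE 0.22) in experiment 1. Dtna, the dystrobrevin alpha gene, rose by 0.75 (SE 0.15) in experiment 1 and by 0.82 (SE 0.12) in experiment 2. In Ago2KO input 1 was called lower and 2 higher, against 2.57% and 4.38% over all genes. Dtna rose there by 0.81 (SE 0.12). Dmpk, the kinase gene that holds the repeat of myotonic dystrophy type 1 in patients, fell by 0.51 (SE 0.12, edgeR adjusted p 0.00850), a call lost without Ago2KO input library 2 (-0.38). Its Ago2-dependent enrichment of 0.63 (SE 0.18, edgeR adjusted p 0.0397) was the single call of the list (0.384% of all genes were called higher) and was lost with DESeq2 (0.62), with tagged and Ago2KO libraries fitted alone (0.61), with dishes as a block (0.64) and 8 times of 12 with 1 library left out (0.51 to 0.70 over all 12). These counts concern gene-level RNA and say nothing of how the transcripts were spliced.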

How the data were processed

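RNA of 42 input and IP libraries was analysed from 2 tables of raw read counts per gene that the authors deposited, with RPKM values beside them. Per the submitters' processing notes, bcl2fastq 2.20, STAR 2.7.3a and GRCm38 (mm10) were used. The counting tool and annotation are not given in the sources used here. The deposited RPKM values, computed by the authors, served only for a comparison of the order of the 3 genes, which is not independent of the counts. The members and gene lists were chosen with earlier results of these data known. Named genes are the 3 members, targeted genes, up to 2 called genes of each list with the largest change in a comparison, and the 3 genes most similar to each member, of mean log2 CPM of at least 2. List genes called in opposite directions in Trim71KO input of the 2 experiments are named too.

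Tests on counts used edgeR 4.0.16 under R 4.3.3 (TMM, filterByExpr, quasi-likelihood F test, 1 fit for each experiment, Benjamini-Hochberg over 18772 and 19778 genes). SE is the log2 change over the square root of F, and 95% intervals are the change ± 1.96 SE. These intervals use a normal quantile, so they are approximate and somewhat narrower than the F test implies. Ratios within libraries used a pseudocount of 0.5. The fit was tested on simulated counts. Alternatives were RLE and library-size scaling, no filter, DESeq2 1.42.0, only the groups compared, blocks by replicate number, and each library left out. Same-numbered libraries deviated together, with every correlation above 0.1, only between tagged and Trim71KO cells of experiment 2 (0.183 to 0.324 within IP and 0.208 to 0.302 within input). Replicate pairs differed by more than sampling noise, with a chi-square per gene of 2.87 to 64.1, so each library counted as 1 sample.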

Additional observations from a re-analysis of the deposited data

How the results depend on the processing

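For the 54 results on the 3 genes, 390 of 404 values from other settings and 437 of 486 values with 1 library left out kept direction and side of the threshold. Mbnl1 calls for tag-specific, Trim71-dependent, Ago2-dependent and remaining enrichment, bead-bound RNA and Trim71KO against Ago2KO recovery held whichever library was left out. Their ranges included -2.49 to -2.18 and -2.09 to -1.72 for Trim71-dependent and -1.15 to -0.75 for Ago2-dependent enrichment. Mbnl3 had 28 to 60 counts in an input library and the largest SEs of the 3 genes. The causes of the changes below were not tested.

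Scaling by library size alone turned bead-bound Mbnl2 in Trim71KO cells of experiment 1 to 0.076, Trim71-dependent Mbnl2 of experiment 2 to 0.016, Trim71KO input Mbnl3 of experiment 2 to -0.028 and Ago2KO input Mbnl2 to -0.019, none of them a call. It ended the Mbnl2 calls in input of experiment 2 (Trim71KO against tagged 0.20, against Ago2KO 0.22) and the bead-bound Ago2KO calls of Mbnl2 (-0.18) and Mbnl3 (-0.44). Without the low-count filter, bead-bound Mbnl2 in Trim71KO cells of experiment 2 was 0.21 and no call. With only the groups compared, Ago2-dependent Mbnl1 (-0.95) and bead-bound Ago2KO Mbnl2 (-0.24) and Mbnl3 (-0.51) were no calls.

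Replicate number as a block left bead-bound Ago2KO Mbnl3 at -0.52 without a call (edgeR adjusted p 0.0539), and number within fraction as a block made the Mbnl3 recovery remaining in Ago2KO cells a call (0.76, edgeR adjusted p 0.0415). The numbers were not shown to pair these samples. The block changed no other call on the 3 genes, including those for tagged and Trim71KO cells of experiment 2, where numbers paired the samples.

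Levels per length (CPM per kilobase) with library size alone moved by more than the SD for Mbnl1 in experiment 1 (Trim71KO input 0.882, tagged IP 13.7, untagged input 0.491) and experiment 2 (Ago2KO input 0.648, Trim71KO IP 2.69, untagged input 0.606). The same held for Mbnl2 in experiment 1 (tagged IP 4.30, untagged IP 2.34, untagged input 2.58) and experiment 2 (Ago2KO IP 3.16, Trim71KO IP 4.17, tagged IP 3.58, tagged input 2.98), and for Mbnl3 in experiment 2 (Ago2KO input 0.313, Trim71KO IP 0.492).

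Within 1 experiment the exact permutation test of the ratios cannot give p under 0.1. Values for experiments 1 and 2 alone were -1.85 and -1.84 (Mbnl1 to Mbnl2) and -1.95 and -1.74 (Mbnl1 to Mbnl3) for IP minus input, with 0.10 in experiment 2 for Mbnl2 to Mbnl3. In input they were 0.59 and 0.56 (Mbnl1 to Mbnl3) and 0.53 and 0.23 (Mbnl2 to Mbnl3). With 1 dish left out, Mbnl2 to Mbnl3 ran from -0.18 to 0.12 for IP minus input and from 0.26 to 0.51 in input, and Mbnl1 to Mbnl2 in input from 0.14 to 0.27.

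With 1 library left out, log2 changes that crossed the threshold or 0 had these ranges. Trim71KO against tagged input gave 0.43 to 0.65 for Mbnl1, 0.32 to 0.67 for Mbnl2 and -0.41 to 0.13 for Mbnl3 in experiment 1, and 0.22 to 0.34 for Mbnl2 and -0.059 to 0.15 for Mbnl3 in experiment 2. Trim71KO against Ago2KO input gave 0.48 to 0.63 for Mbnl1, 0.20 to 0.32 for Mbnl2 and -0.15 to 0.063 for Mbnl3. Ago2KO against tagged input gave -0.021 to 0.15, -0.034 to 0.083 and -0.0026 to 0.20 for Mbnl1, Mbnl2 and Mbnl3. Tagged against untagged input gave -0.49 to -0.16 for Mbnl2 in experiment 1, and -0.032 to 0.13 for Mbnl1 and -0.091 to 0.18 for Mbnl3 in experiment 2. Bead-bound RNA in Trim71KO cells gave -0.18 to 0.11 for Mbnl2 in experiment 1, and 0.18 to 0.25 for Mbnl2 and -0.32 to 0.021 for Mbnl3 in experiment 2. Bead-bound RNA in Ago2KO cells gave -0.32 to -0.21 for Mbnl2 and -0.74 to -0.38 for Mbnl3. Trim71-dependent Mbnl2 gave -0.68 to -0.32 and -0.11 to 0.011 in experiments 1 and 2, and the Mbnl3 recovery remaining in Ago2KO cells 0.63 to 0.91.

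The number of all genes called in Trim71-dependent enrichment of experiment 2, 295, became 489 with library size alone, 548 with DESeq2, 470 with number within fraction as a block, 522 with a block for each lysate and 136 with only the groups compared. Only the groups compared also gave 497 instead of 275 for tagged against untagged input, 2481 instead of 1376 for Ago2KO input and 1582 instead of 3236 for Ago2KO IP. Leaving out 1 library moved the Trim71-dependent count from 703 to between 339 (without Trim71KO input library 3) and 1435 (without Trim71KO IP library 1) in experiment 1 and from 295 to between 98 (without Trim71KO IP library 2) and 562 (without tagged IP library 1) in experiment 2. It moved the counts for tagged against untagged input from 1983 to between 722 (without tagged input library 2) and 3053 (without tagged input library 1) in experiment 1 and from 275 to as low as 154 in experiment 2, and that for Ago2KO input from 1376 to as low as 774.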
